A study of Mus musculus with 8 samples.

Results

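The genes described here are 53 of the 54232 genes in the deposited tables: every axonemal dynein heavy chain (symbols beginning Dnah), every gene named cilia and flagella associated protein (Cfap), every radial spoke head gene (Rsph), the central pair genes Spag6l, Spag16 and Spag17, and Foxj1. Symbols were matched by their pattern and had to hold at least 20 unique molecular identifiers (UMIs, each standing for 1 captured RNA molecule) over all libraries. All 53 matching symbols passed, and the lowest, Rsph6a, held 122 UMIs. Some axoneme genes stand in the tables under older names (Wdr63 and Maats1, for example) and were therefore not members.

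Motile cilia are beating, hair-like projections built on an axoneme, a ring of doublet microtubules around a central pair of microtubules. Dynein arms on the doublets are the motors, and radial spokes and the central pair coordinate their strokes. In the brain such cilia stand on the ependymal cells that line the ventricles. The choroid plexus epithelium also carries cilia, and RNA levels do not show whether these beat. The transcription factor Foxj1 is known for switching on the motile cilium programme.

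RNA of single nuclei was sequenced from a small cube of frozen perilesional forebrain of male Swiss Webster mice aged 10 weeks. The 8 libraries form 4 groups of 2: control, BCAS surgery, TBI surgery and both surgeries (BCAS+TBI). TBI is traumatic brain injury, and BCAS is given only as an abbreviation that the study's title ties to cerebral hypoperfusion. The labels call the 2 libraries of a group biological replicates but give neither the number of animals behind a library nor the time from surgery to collection, so p-values measure the spread between these libraries. All groups share sex, strain, age and region, and none carries a transgene in the labels.

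After filters on UMIs, genes, mitochondrial reads and doublets, 45560 nuclei of 53390 barcodes were kept, 5049 to 7157 per library. The libraries held 28118725 to 56135192 UMIs each and fell into 2 sets by that total, each with 1 library of every group (set 1: control 1, BCAS 1, TBI 1 and BCAS+TBI 2). Any 2 libraries shared 5 to 20 cell barcodes. Nuclei were assigned to 12 classes by marker genes that include no member by symbol. Some ependymal markers, such as Dynlrb2, also belong to cilia. Levels of cilium genes in ependymal-like nuclei are therefore not independent of how these nuclei were picked. The assignment gave 191 ependymal-like nuclei (control 14 and 34, BCAS 15 and 45, TBI 21 and 37, BCAS+TBI 17 and 8, replicate 1 first) and 385 choroid plexus-like nuclei. Where all nuclei of a library are summed, fewer ciliated cells and less RNA per cell cannot be told apart. Of the ependymal-like nuclei 60.2% had a UMI of the ependymal marker Tmem212, against 0.998% of the other gated nuclei, and 78.0% against 0.577% had one of Wdr49. Of the choroid plexus-like nuclei 74.8% had a UMI of Clic6, against 1.12% of the others.

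The promoters are shown first because factors of the RFX family, which bind the X-box motif, act beside Foxj1 on cilium genes. RefSeq (GRCm38.p6) gave the 250 bases before the transcription start for 46 promoters of 42 members. The full X-box, spelled GTTNCC, any 2 bases, GGNAAC, stood in 0 of the 46 on either strand and in 0.374% of 32851 promoters of all genes. A relaxed form (GTTNCC, any 3 bases, G, any 2 bases, AC), chosen after the full form matched no member, stood in 4 of 46 member promoters (8.70%) and in 1.82% of all promoters. The 4 belong to Spag16, Cfap206, Cfap44 and Cfap45. By the GENCODE M21 annotation the Cfap45 match lies inside the gene and not before its start. The shorter motif GTTGCC, which overlaps the relaxed form in Spag16 and Cfap44, stood in 12 of 46 (26.1%) and in 10.4% of all promoters, and the forkhead motif GTAAACA in 3 of 46 (6.52%) against 3.17%. These are matches of letters and show no binding. The promoters of Spag16 (chr1:69826720-69826969, plus strand) and Cfap206 (chr4:34730207-34730456, minus strand) follow, 5′ to 3′ on the strand of the gene, with the relaxed X-box in capitals; it ends 89 and 9 bases before the start.
Spag16: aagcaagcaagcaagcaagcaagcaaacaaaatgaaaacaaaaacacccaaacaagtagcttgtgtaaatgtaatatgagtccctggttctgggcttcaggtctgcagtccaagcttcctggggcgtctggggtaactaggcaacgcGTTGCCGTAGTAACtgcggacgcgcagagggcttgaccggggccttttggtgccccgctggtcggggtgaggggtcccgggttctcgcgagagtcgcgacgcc
Cfap206: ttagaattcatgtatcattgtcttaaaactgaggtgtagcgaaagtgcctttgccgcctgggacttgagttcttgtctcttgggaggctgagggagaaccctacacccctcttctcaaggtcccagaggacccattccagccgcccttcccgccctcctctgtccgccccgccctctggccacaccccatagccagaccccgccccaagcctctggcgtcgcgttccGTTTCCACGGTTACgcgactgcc
In Cfap44 (chr16:44394772-44394785) and Cfap45 (chr1:172521111-172521124) the matching 14 bases read on the opposite strand as the motif and are given on the strand of the gene.
Cfap44: GTTGCTATGGCAAC
Cfap45: GTTGCTATGGTAAC

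Over all nuclei of a library the 53 members together took 763 to 828 CPM (a gene's UMIs scaled to the same sum of UMIs in every library or class, not to gene length), with a median of 780 CPM. Most of these UMIs lay outside the ependymal-like and choroid plexus-like classes. Of them 37.1% were in excitatory neuron-like nuclei and 34.7% in nuclei assigned to no class, some of which held markers of several classes. Choroid plexus-like nuclei held 3.70% and ependymal-like nuclei 3.37%. In ependymal-like nuclei the summed level was 3780 CPM in the lowest library, 5863 at the median and 11484 in the highest, and in choroid plexus-like nuclei it was 3782, 4878 and 6833 CPM. No library of any other class reached these levels. The next class was the excitatory neuron-like one, at 768, 791 and 815 CPM. That is near the level over all nuclei, so its 37.1% of the member UMIs was close to its share of all UMIs. Mural-like nuclei, from the vessel wall, had the lowest median at 471 CPM. The ependymal-like class was the class with the highest pooled level for 36 of the 53 members and the choroid plexus-like class for 12. The remaining 5 peaked elsewhere: Cfap97 and Dnah17 in microglia-like, Cfap20 in oligodendrocyte precursor-like, Dnah8 in endothelial-like and Rsph6a in striatal projection neuron-like nuclei.

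**Figure D1:**
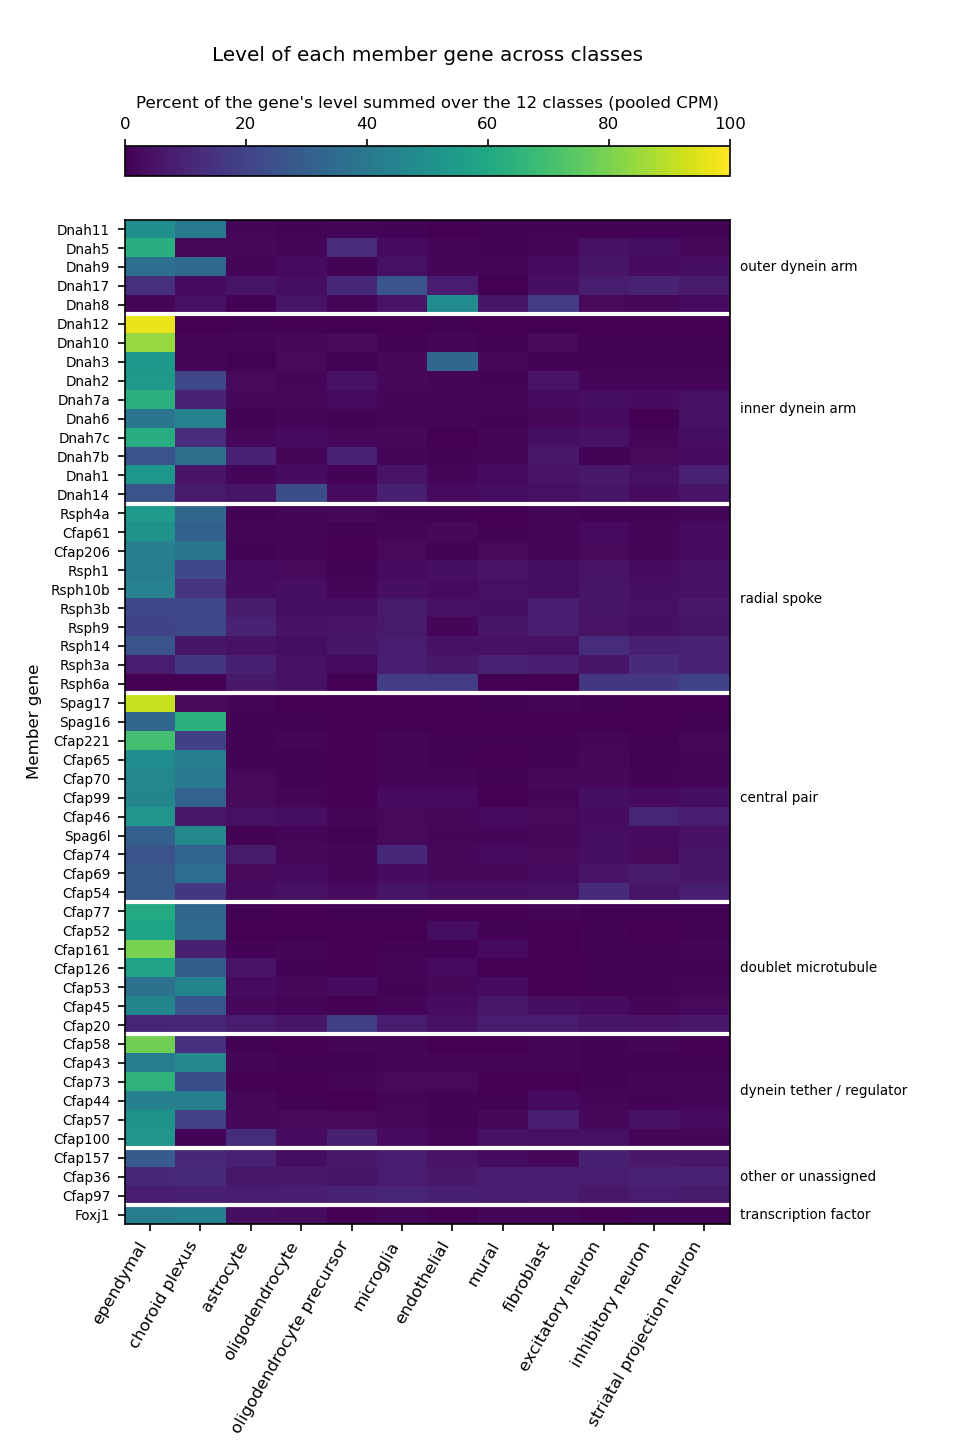
Heat map of the 53 members (rows, grouped by their place in the axoneme) over the 12 marker-gated classes (columns). Colour gives the percent of a gene's level, in pooled CPM summed over the classes, that falls in each class; the ependymal column is the brightest for 36 members and the choroid plexus column for 12, and Dnah8 and Dnah3 also stand out in the endothelial column.

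Ependymal-like nuclei were compared with the other gated nuclei of the same library, leaving out choroid plexus-like ones, by edgeR's quasi-likelihood test on summed counts with the library as a term; a gene is called at a Benjamini-Hochberg adjusted p of at most 0.05 over all genes tested. Of the 53 members 46 passed the filter on low counts, which a gene can pass through the ependymal-like sums alone. Of these 41 were higher and 0 lower in ependymal-like nuclei, while 6.63% of the 16733 genes tested were called higher and 10.5% lower. The median log2 fold change was 3.70 over the tested members and -0.25 over all genes tested. Before any filter, 51 of the 53 had a pooled ependymal-like level above that of the other nuclei, 33 of them at least 10-fold, and 31 were higher in 8 of 8 libraries. The 7 members not tested were Cfap58, Cfap161, Cfap126, Cfap73, Rsph4a, Dnah17 and Rsph6a, and Rsph6a had 0 UMIs in ependymal-like nuclei. DESeq2 called 40 of 46 members higher. The scaling shifted the balance of all genes: 1109 were higher and 1755 lower with TMM, and 1384 were higher and 794 lower with RLE size factors, where the median of all genes was -0.04 and 42 of 46 members were higher.

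Among the inner dynein arm genes, which encode motors that shape the bend of the cilium, 10 of 10 were tested and higher (median log2 fold change 3.82). Dnah12 (chr14:26693274-26891703) had 218 and 241 CPM in the ependymal-like nuclei of the control libraries, 145 and 166 CPM in BCAS, 77.6 and 266 CPM in TBI, and 177 and 91.5 CPM in BCAS+TBI. It was at 1.19 CPM or less in every other class, so that 71.5% of its UMIs in gated nuclei came from the 191 ependymal-like nuclei. Its log2 fold change was 8.34 ± 0.32 (SE). Dnah10, also an inner arm motor, was higher by 5.93 ± 0.29, Dnah3 by 4.72 ± 0.30 and Dnah6 by 3.74 ± 0.18 on the log2 scale. Dnah7a, Dnah7b and Dnah7c have transcripts that are about 96.4% identical, so reads between them are uncertain; Dnah7b, the inner arm gene with the most UMIs, was higher by 3.37 ± 0.21.

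Of the 5 outer dynein arm genes, which encode the motors that set beat frequency, 4 were tested and 3 were higher. Dnah9 (chr11:65831282-66168551, with the gene Gm12296 on the opposite strand) had, in ependymal-like nuclei, 400 and 585 CPM in control, 78.3 and 280 CPM in BCAS, 146 and 379 CPM in TBI, and 281 and 214 CPM in BCAS+TBI libraries. BCAS 1 and TBI 1 were the 2 lowest libraries and control 2 the highest. Its log2 fold change was 2.59 ± 0.17, that of Dnah11 was 5.63 ± 0.21 and that of Dnah5 was 3.67 ± 0.21. Dnah8 (chr17:30624354-30877365), a heavy chain better known from sperm, had 3 UMIs in ependymal-like nuclei (2.80 CPM, exact 95% binomial interval 0.577 to 8.17 CPM, counting error only) and a log2 fold change of -1.10 ± 0.80 (edgeR adjusted p = 0.40).

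Of the 11 central pair genes 11 were tested and higher (median log2 fold change 3.28). Spag17 (chr3:99885406-100143322), a scaffold of the central pair, had 309 and 557 CPM in the control libraries, 112 and 353 CPM in BCAS, 414 and 517 CPM in TBI, and 209 and 275 CPM in BCAS+TBI. Its level in the other gated nuclei was 1.91 CPM, and its log2 fold change was 7.18 ± 0.21. Spag17 overlaps Spag17os and Wdr3 on the opposite strand, and the strand setting of the counting is not given in the sources used here. Spag16 (chr1:69826970-70725132), whose promoter is printed above, had 673 and 708 CPM in control, 257 and 487 CPM in BCAS, 293 and 912 CPM in TBI, and 409 and 214 CPM in BCAS+TBI libraries. Its log2 fold change was 6.28 ± 0.18. Cfap54 (chr10:92775619-93081618), needed for central pair assembly, was also read in the other gated nuclei, at 200 CPM against 605 CPM in ependymal-like ones, and its log2 fold change was 1.25 ± 0.16.

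Among the 7 genes for proteins inside or on the doublet microtubules 5 were tested and 4 were higher. Cfap77 (chr2:28926949-29055066) had 90.9 and 117 CPM in control, 78.3 and 83.0 CPM in BCAS, 34.5 and 161 CPM in TBI, and 64.2 and 0 CPM in BCAS+TBI libraries. The 0 fell in BCAS+TBI 2, the library with 8 ependymal-like nuclei. Cfap77 was higher by 6.59 ± 0.31 and Cfap52 by 6.22 ± 0.31 on the log2 scale. Cfap20, which encodes a protein of the doublet's inner junction and was read in every class, had 0.46 ± 0.23 (edgeR adjusted p = 0.17). Of the 6 genes of the tethers that hold the arms to the doublet, 4 were tested and higher, among them Cfap43 with 5.57 ± 0.20 and Cfap44 with 4.51 ± 0.18. Cfap58 was not tested; its pooled level was 18.6 CPM in ependymal-like and 0.203 CPM in other gated nuclei.

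Of the 10 radial spoke genes 8 were tested and 7 were higher (median log2 fold change 2.23). Rsph10b, the spoke gene with the most UMIs, shares its strand with the overlapping gene Pms2 and was higher by 2.69 ± 0.21. Rsph1 (chr17:31255019-31277383), a spoke head protein, was higher by 3.03 ± 0.32. Rsph3a, whose transcript is 95.1% identical to that of Rsph3b and whose reads are therefore uncertain, had -0.19 ± 0.42 (edgeR adjusted p = 0.82). Foxj1 (chr11:116330704-116335399) had 29 UMIs over all ependymal-like nuclei, at 90.9 and 34.4 CPM in control, 22.4 and 18.2 CPM in BCAS, 25.9 and 32.3 CPM in TBI, and 16.1 and 30.5 CPM in BCAS+TBI libraries. These levels rest on 1 to 7 UMIs per library. Its log2 fold change was 5.59 ± 0.38, and it was higher than in the other gated nuclei in 8 of 8 libraries. Of the 3 members without an assigned place in the axoneme, Cfap157 was higher by 1.77 ± 0.45, Cfap36 had 0.24 ± 0.19 (edgeR adjusted p = 0.45) and Cfap97 had -0.00 ± 0.30.

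In choroid plexus-like nuclei most tested members were higher too, against the other gated nuclei without the ependymal-like ones. Of 45 tested, 33 were higher and 2 lower than in the other gated nuclei, where 16.1% of 17090 genes were called higher and 24.5% lower (median log2 fold change 2.46 over the tested members and -0.20 over all genes tested). Spag16 had 777 and 803 CPM in control, 771 and 946 CPM in BCAS, 900 and 1020 CPM in TBI, and 1632 and 1379 CPM in BCAS+TBI libraries, and a log2 fold change of 7.33 ± 0.19. Cfap43 (5.80 ± 0.16), Cfap77 (5.69 ± 0.33), Dnah11 (5.42 ± 0.17) and Cfap52 (5.27 ± 0.39) were also higher. The 2 lower members were Dnah5, with a log2 fold change of -1.16 ± 0.45, and Cfap100, with -2.36 ± 0.66 from 3 UMIs in the whole class (1.91 CPM, exact 95% binomial interval 0.394 to 5.59 CPM, counting error only). Foxj1 had 44 UMIs in choroid plexus-like nuclei, a pooled level of 28.0 CPM against 27.0 CPM in ependymal-like ones. By place in the axoneme, 10 of 11 central pair genes, 5 of 5 tested doublet genes, 8 of 9 tested spoke genes and 3 of 4 tested tether genes were higher, as were 5 of 9 tested inner arm and 2 of 4 tested outer arm genes; the places were not tested against each other.

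**Figure D2:**
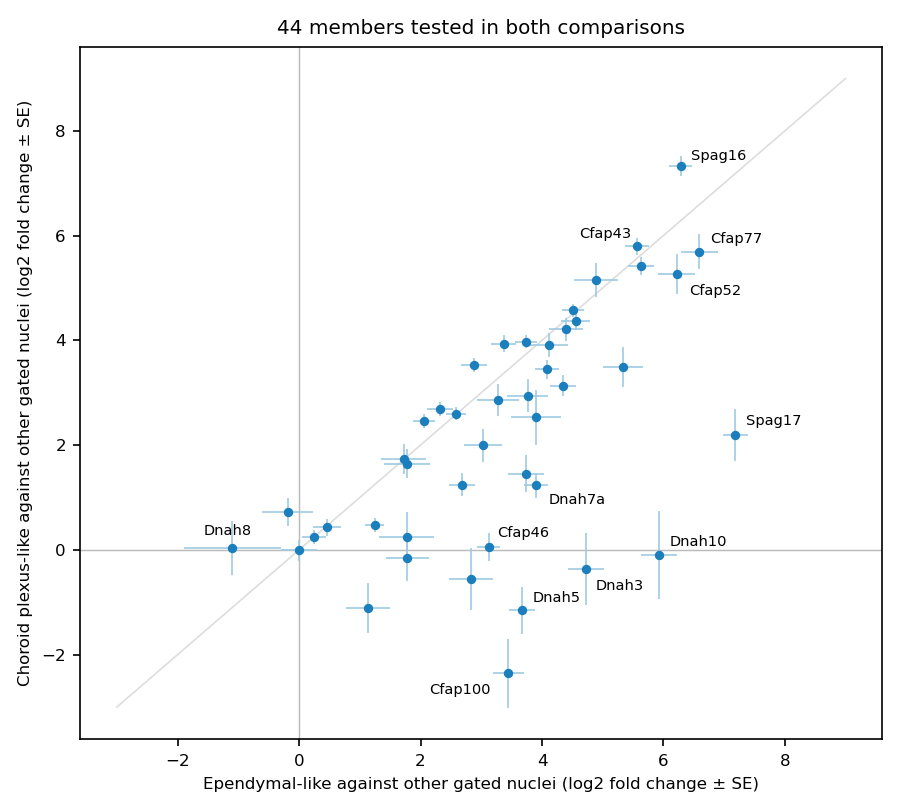
Log2 fold change against the other gated nuclei in ependymal-like (x axis) and choroid plexus-like nuclei (y axis) for the 44 members tested in both, with bars of 1 SE and a grey line of equality. Spag16, Cfap43, Cfap77 and Cfap52 are high on both axes, whereas Spag17, Dnah10, Dnah3, Dnah5, Cfap46 and Cfap100 lie far below the line.

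The difference between these ciliated classes was tested directly in a comparison added after the data were seen. Of 21 members that passed its filter, 7 were higher in ependymal-like nuclei and 1 was lower, where 19.0% of 2880 genes were called higher and 21.3% lower. A gene could pass this filter through its level in 1 class alone. For members near 0 in choroid plexus-like nuclei, such as Dnah12, Spag17 and Dnah5, the call is therefore not independent of the filter. Dnah12 had 0 UMIs in the 385 choroid plexus-like nuclei and 191 in the ependymal-like ones; against a floor of 3 UMIs over the class (1.91 CPM) it was at least 93.1-fold higher in ependymal-like nuclei. Spag17 was higher by 5.00 ± 0.38 and Dnah5 by 4.80 ± 0.29 on the log2 scale. In choroid plexus-like nuclei Spag17 had 0 to 5 UMIs and Dnah5 0 to 4 UMIs per library. Cfap46 (3.12 ± 0.30), Dnah7a (2.71 ± 0.30, uncertain as above), Dnah2 (1.17 ± 0.44) and Cfap54 (0.82 ± 0.21) were the other higher ones. Spag16 was lower, by -1.04 ± 0.29. Dnah9 (-0.01 ± 0.28), Dnah11 (0.15 ± 0.29) and Spag6l (-0.63 ± 0.26, edgeR adjusted p = 0.07) were not called.

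Other genes of the cilium, taken from lists of known components, were counted in the same comparison, in which 6.63% of all genes were called higher. Of the factors that assemble or dock dynein arms 10 of 10 tested were higher (median log2 fold change 3.40), among them Lrrc6 by 2.03 ± 0.28 and Spag1 by 0.90 ± 0.28. Of the nexin-dynein regulatory complex and the ruler proteins that set its spacing 9 of 10 were higher, with Ccdc39 at 1.57 ± 0.18 and Drc1 at 2.48 ± 0.22. Of other axoneme proteins 13 of 14 were higher; Nme7, with -0.21 ± 0.18 (edgeR adjusted p = 0.50), was the exception. Intraflagellar transport, the traffic that builds primary as well as motile cilia, was called higher for 9 of 25 genes (median 0.40), with Dync2h1 at 0.54 ± 0.16 and Kifap3, not called, at -0.14 ± 0.17. Of 7 tested regulators of multiciliation 4 were higher, including Rfx3 by 0.59 ± 0.16, while Rfx1 had -1.01 ± 0.46 (edgeR adjusted p = 0.12). In choroid plexus-like nuclei the counts were 8 of 10, 8 of 10, 13 of 15, 12 of 25 (4 lower) and 5 of 7 in the same order, where 16.1% of genes were called higher and 24.5% lower.

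Across 96 profiles (12 classes in 8 libraries) the genes outside these lists that followed the summed members most closely, by Pearson's r on log2(CPM + 1), were Gm29538 (0.955), Ttc21a (0.936), 2010001K21Rik (0.933), 1700028P14Rik (0.933), Wdr63 (0.927), Ak9 (0.925), C230072F16Rik (0.923), Nek5 (0.919), Maats1 (0.919) and Spata18 (0.915). The profiles share libraries and depth, and the r values are given as a description. Wdr63 and Maats1 are the older names of axoneme genes mentioned above.

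The number of member genes detected in 1 nucleus depends on its depth. At full depth 11432 of 45560 nuclei (25.1%, 95% Wilson interval 24.7% to 25.5%, counting error only) had a UMI of at least 5 members, and the share ran from 18.0% to 31.5% between libraries. It was 96.3% of ependymal-like nuclei (184 of 191, median 2546 UMIs) and 92.5% of choroid plexus-like nuclei (356 of 385), but also 33.7% of excitatory neuron-like nuclei, whose median was 6306 UMIs, and 34.2% of striatal projection neuron-like nuclei. After every nucleus was thinned to 1000 UMIs, with shallower nuclei left out, 481 of 41946 nuclei (1.15%) had at least 5. Then 130 of 175 ependymal-like (74.3%) and 231 of 383 choroid plexus-like nuclei (60.3%) had at least 5 members, against 19 of 2873 astrocyte-like (0.661%), 9 of 13903 excitatory neuron-like (0.0647%) and 84 of 12618 ungated nuclei (0.666%). No thinned microglia-like nucleus had 5 (0 of 793, which allows a share of up to 0.378%). The 26 ungated nuclei that still had at least 10 members after thinning were not assigned to any class.

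**Figure D3:**
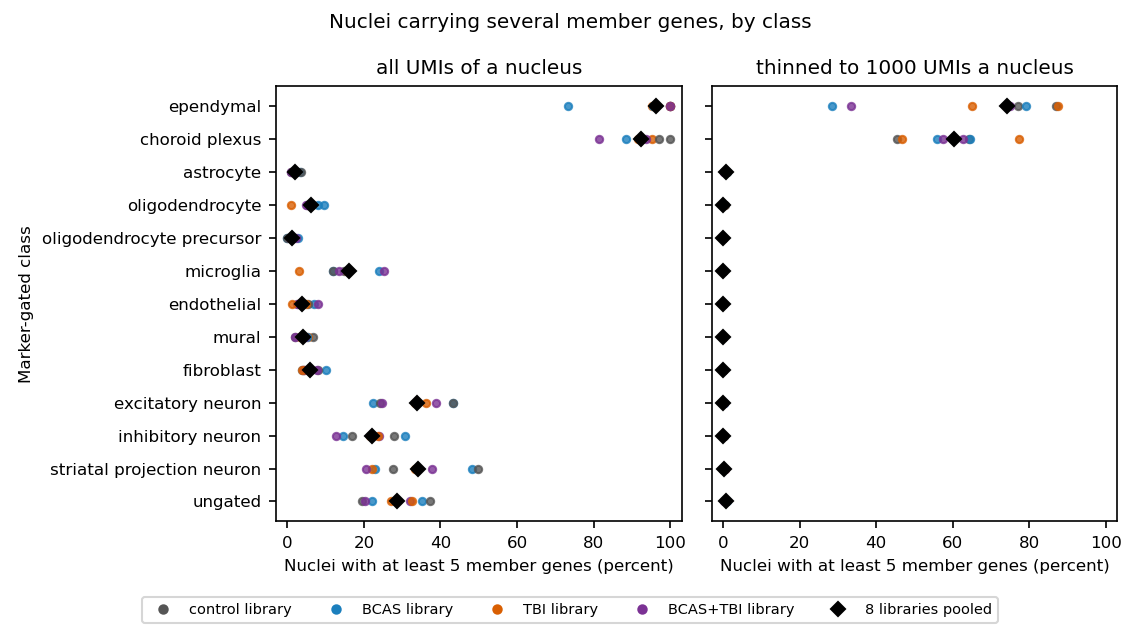
Percent of nuclei with a UMI of at least 5 members in each class, at full depth (left) and after thinning to 1000 UMIs (right). Coloured points are libraries by group and black diamonds the 8 libraries pooled; neuron-like and ungated classes at 22.2% to 34.2% on the left fall below 1% on the right, while ependymal-like and choroid plexus-like nuclei stay at 74.3% and 60.3%.

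By library, the thinned ependymal-like nuclei with at least 5 members numbered 10 of 13 and 27 of 31 in control, 4 of 14 and 34 of 43 in BCAS, 13 of 20 and 28 of 32 in TBI, and 12 of 16 and 2 of 6 in BCAS+TBI. The low shares were those of BCAS 1 and BCAS+TBI 2. Over all thinned nuclei the share was 1.08% and 1.13% in control, 0.849% and 1.68% in BCAS, 1.60% and 0.993% in TBI, and 0.950% and 0.839% in BCAS+TBI libraries. The BCAS libraries spanned the values of all other groups except the lowest one, 0.839%, and both BCAS+TBI libraries lay below both control and both TBI libraries, a difference that was not tested.

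The 4 groups were first compared in the share of nuclei that were ependymal-like. It was 0.261% and 0.610% in control, 0.290% and 0.700% in BCAS, 0.416% and 0.517% in TBI, and 0.300% and 0.155% in BCAS+TBI libraries. The counts behind these shares are small: the 95% Wilson interval was 0.0787% to 0.306% in the lowest library (8 nuclei) and 0.524% to 0.935% in the highest (45 nuclei). Libraries with TBI surgery had 0.347% ± 0.156 (SD, n = 4) and those without 0.465% ± 0.223 (SD, n = 4), a difference of -0.118 percentage points (two-sided exact permutation p = 0.429, 0.543 adjusted over both surgeries). Libraries with BCAS surgery had 0.361% ± 0.235 and those without 0.451% ± 0.150, a difference of -0.0894 points (exact permutation p = 0.543, adjusted 0.543); 0.0286 is the smallest p that 4 against 4 libraries allow. Within library sets 1 and 2 the differences were 0.0103 and -0.246 points for TBI and -0.116 and -0.0633 points for BCAS, so the sign for TBI did not hold within both sets.

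Summed over all nuclei, 53 members were tested and 0 were called in the comparisons of TBI (averaged over BCAS), BCAS (averaged over TBI), BCAS+TBI against TBI, and their interaction, by edgeR's quasi-likelihood test; 0.0% of 23975 genes were called in each. By edgeR 0 members had an unadjusted p under 0.05 in any of them, and DESeq2 called 0. The median log2 fold changes of the members were -0.04, -0.04, -0.09 and -0.17. Dnah12 had 1.19 and 1.29 CPM in control, 1.23 and 2.06 CPM in BCAS, 0.96 and 1.10 CPM in TBI, and 1.08 and 0.76 CPM in BCAS+TBI libraries. All 4 libraries with TBI surgery were below the 4 without, which held for 1 of 53 members and for 0.651% of genes in either direction; its log2 fold change was -0.55 ± 0.33. For BCAS surgery 0 of 53 members and 0.53% of genes separated the libraries in this way. The members with the smallest p in the other comparisons were Dnah14 for BCAS (0.25 ± 0.16), Spag17 for BCAS+TBI against TBI (-0.67 ± 0.36) and Spag17 for the interaction (-0.99 ± 0.50).

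Within ependymal-like nuclei the members had lower values in most libraries with BCAS surgery, but 0 passed the test. The 53 members together had 7619 and 11484 CPM in control, 3780 and 6114 CPM in BCAS, 4404 and 10445 CPM in TBI, and 5613 and 3997 CPM in BCAS+TBI libraries. The libraries with BCAS surgery averaged 4876 ± 1162 CPM and those without 8488 ± 3175 CPM (SD, n = 4 each), and the groups overlapped through TBI 1 alone. Within each library set both libraries with BCAS surgery lay below both without. Of the 32 members tested 0 were called by edgeR's quasi-likelihood test (0.0% of 3551 genes) or by DESeq2. The log2 fold change for BCAS was below 0 for 32 of 32, with a median of -0.84 against -0.04 for all genes. An unadjusted edgeR p under 0.05 was found for 11 members, as for 5.63% of genes (4 members by DESeq2). The members are summed over the same few nuclei, so these directions are not independent of each other. Spag6l (chr16:16753016-16829456), a central pair protein, had 145 and 220 CPM in control, 55.9 and 127 CPM in BCAS, 138 and 274 CPM in TBI, and 80.3 and 91.5 CPM in BCAS+TBI libraries. It was lower in all 4 libraries with BCAS surgery than in the 4 without. By edgeR's quasi-likelihood test Spag6l had a log2 fold change of -1.15 ± 0.37 (adjusted p = 1.00). Rsph1 also separated the libraries, with 55.9, 33.7, 56.2 and 30.5 CPM against 72.7, 82.5, 60.3 and 96.9 CPM from 1 to 13 UMIs each; these were 2 of 47 members, against 2.72% of genes.

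Several other measures moved with this pattern, and their part in it was not tested. The 13 ependymal gate markers summed to 2837 and 2111 CPM in control, 1599 and 1698 CPM in BCAS, 1422 and 2922 CPM in TBI, and 1622 and 1526 CPM in BCAS+TBI libraries, with the same libraries low as for the members. The 12 excitatory neuron markers, read in the same nuclei, summed to 1600 and 811 CPM in control, 1868 and 1112 CPM in BCAS, 1499 and 1122 CPM in TBI, and 2377 and 1800 CPM in BCAS+TBI. Ependymal-like nuclei had a median of 5393 and 2993 UMIs in BCAS and 3723 and 3092.5 UMIs in BCAS+TBI libraries, all above the 2027.5 to 2514 UMIs in the libraries without BCAS surgery. The pattern leaned on single libraries: without TBI 2 the log2 fold change was below 0 for 29 of 36 members with a median of -0.35 and 0 at an unadjusted p under 0.05, and without control 2, BCAS+TBI 2 or BCAS 1 that number was 2, 2 and 4. It was 23 without TBI 1 and 19 without control 1. With the library set as a term it was 21 of 32 (smallest edgeR adjusted p = 0.442), and without nuclei of very high UMI counts (more than 3-fold above the median nucleus of the same class in the same library) it was 2 of 29. It was 7 with a stricter gate, with doublets kept or with at least 1000 UMIs per nucleus.

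**Figure D4:**
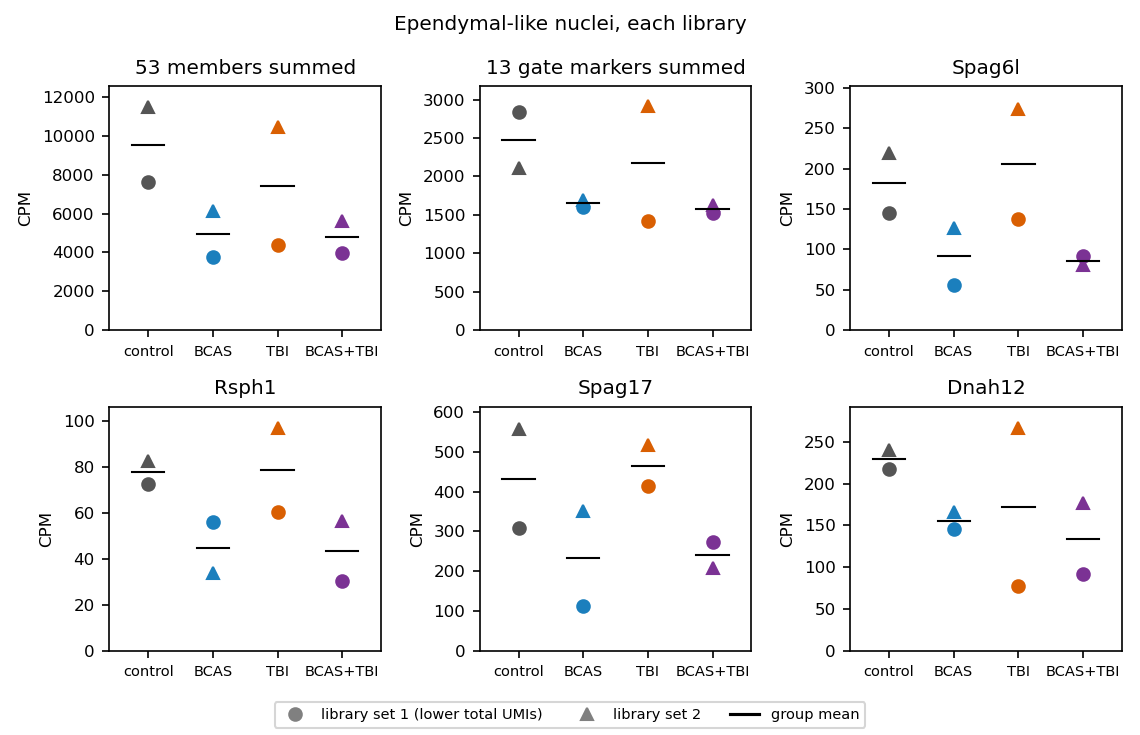
CPM in ependymal-like nuclei for each library (circles, library set 1; triangles, set 2) in the 4 groups, with group means as lines, for the 53 members summed, the 13 gate markers summed and 4 members. Levels of Spag6l and Rsph1 in the 4 libraries with BCAS surgery lie below those of the other 4, and TBI 1 is low in the summed members (4404 CPM) and the summed markers (1422 CPM).

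For the other comparisons in ependymal-like nuclei 0 of 32 members were called by either tool, as were 0.0% of genes by edgeR. For TBI averaged over BCAS the median was -0.20, 0 members had an unadjusted edgeR p under 0.05 (1.94% of genes), and Cfap20 (-0.70 ± 0.50) and Cfap221 (-0.92 ± 0.66) had the smallest p. No member separated the libraries with and without TBI surgery (0 of 47, against 2.32% of genes). For BCAS+TBI against TBI the median was -0.60, and 1 member, Spag6l (-1.37 ± 0.56), had an unadjusted edgeR p under 0.05 (2.99% of genes). For the interaction the median was 0.26, 0 members had one (2.45% of genes), and Cfap100 (1.43 ± 0.73) and Dnah9 (1.29 ± 0.79) had the smallest p. DESeq2 gave 0 members with an unadjusted p under 0.05 in each of these comparisons. Without TBI 2 the medians were -0.66, 0.12 and 1.14 in the same order, with 2, 0 and 5 members at an unadjusted edgeR p under 0.05, and without TBI 1 they were 0.06, -1.17 and -0.27, with 0, 6 and 0.

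In choroid plexus-like nuclei the summed members had 4506 and 4271 CPM in control, 3782 and 4811 CPM in BCAS, 6530 and 4946 CPM in TBI, and 6747 and 6833 CPM in BCAS+TBI libraries. All 4 libraries with TBI surgery lay above the 4 without. The comparison of TBI in this class was looked at after these sums were seen. Of 22 members tested 0 were called by edgeR (0.0% of 5058 genes) or DESeq2. Of the 22 log2 fold changes 21 were above 0, with a median of 0.50 against 0.02 for all genes. An unadjusted edgeR p under 0.05 was found for 6 members (13.1% of genes, and 1 member by DESeq2). The members are summed over the same nuclei, so their directions are not independent of each other. Cfap70, a central pair protein, had 88.3 and 50.7 CPM in control, 32.1 and 81.3 CPM in BCAS, 179 and 157 CPM in TBI, and 122 and 125 CPM in BCAS+TBI libraries, and a log2 fold change of 1.07 ± 0.31. Dnah9 had 265 and 217 CPM in control, 193 and 255 CPM in BCAS, 282 and 332 CPM in TBI, and 386 and 457 CPM in BCAS+TBI libraries, and a log2 fold change of 0.57 ± 0.23. The 12 choroid plexus gate markers moved with the members, at 10837 and 11301 CPM in control, 8318 and 11382 CPM in BCAS, 17533 and 12954 CPM in TBI, and 15666 and 15073 CPM in BCAS+TBI libraries. The 12 excitatory neuron markers in the same nuclei had 760 and 581 CPM in control, 1293 and 810 CPM in BCAS, 385 and 909 CPM in TBI, and 366 and 287 CPM in BCAS+TBI libraries, lower in 3 of the 4 libraries with TBI surgery than in any without. The part of either in the result was not tested. Without nuclei of very high UMI counts 15 of 22 members were above 0, with a median of 0.11, and 0 had an unadjusted p under 0.05. The number with such a p was 9 without TBI 2, 2 without BCAS 1, TBI 1 or BCAS+TBI 2, and 1 without control 2. It was 3 with a stricter gate, with doublets kept or with the replicate number as a block, and 2 without a filter on low counts.

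Some members were high in other classes, in comparisons added after the data were seen. The genes named here were chosen after their values were seen. Each class was compared with the other gated nuclei without the ependymal-like and choroid plexus-like ones. A call therefore does not place a class above those classes. In endothelial-like nuclei 3 of 40 tested members were higher (19.8% of genes) and 23 lower (26.1% of genes). Dnah3 (chr7:119922671-120095280) had 91.9 and 55.3 CPM in control, 102 and 38.5 CPM in BCAS, 76.3 and 80.2 CPM in TBI, and 30.9 and 91.8 CPM in BCAS+TBI libraries, and its log2 fold change was 4.62 ± 0.21. Its pooled level was 67.3 CPM there, 107 CPM in ependymal-like nuclei and 5.27 CPM in the next class. Dnah8 had 6.56 and 162 CPM in control, 73.2 and 60.2 CPM in BCAS, 6.93 and 93.2 CPM in TBI, and 65.7 and 30.6 CPM in BCAS+TBI libraries. The control libraries alone spanned the whole range. Its log2 fold change was 3.67 ± 0.28, it was higher than in the other gated nuclei in 8 of 8 libraries, and fibroblast-like nuclei came next with a pooled 26.1 CPM. Lyrm1 lies opposite Dnah3, and Glo1 opposite Dnah8, and the strand setting of the counting is not given in the sources used here. The endothelial marker Flt1 was read in 95.6% of the endothelial-like nuclei and in 2.61% of all other gated nuclei.

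**Figure D5:**
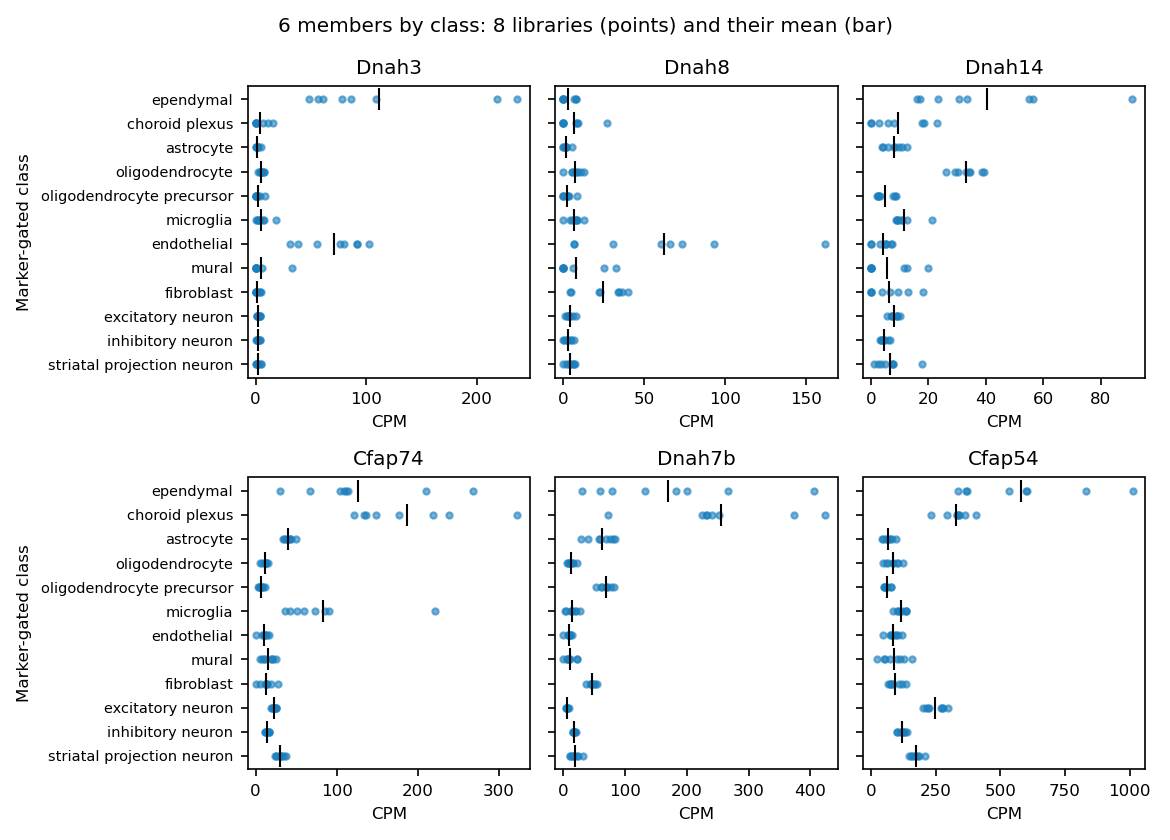
CPM of Dnah3, Dnah8, Dnah14, Cfap74, Dnah7b and Cfap54 in the 12 classes, with 8 libraries as points and their mean as a bar. Leaving aside the ependymal-like and choroid plexus-like classes, endothelial-like nuclei stand out for Dnah3 and Dnah8 and oligodendrocyte-like nuclei for Dnah14. In the same way microglia-like nuclei stand out for Cfap74, astrocyte-like and oligodendrocyte precursor-like nuclei for Dnah7b, and excitatory neuron-like nuclei for Cfap54. Pooled levels of Cfap74, Dnah7b and Cfap54 were highest in the ependymal-like and choroid plexus-like classes.

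In oligodendrocyte-like nuclei 5 of 41 tested members were higher (26.2% of genes) and 22 lower (4845 of 17498 genes). The higher ones were led by Dnah14 with a log2 fold change of 2.16 ± 0.13. Dnah14 had 34.3 and 39.4 CPM in control, 33.1 and 30.5 CPM in BCAS, 38.7 and 34.2 CPM in TBI, and 29.2 and 26.2 CPM in BCAS+TBI libraries, and its pooled level of 32.7 CPM was near the 34.5 CPM in ependymal-like nuclei. In microglia-like nuclei 3 of 40 were higher (14.8% of genes) and 8 lower (2546 of 17654 genes). Cfap74, a central pair protein, had 36.9 and 90.0 CPM in control, 42.8 and 85.6 CPM in BCAS, 60.2 and 222 CPM in TBI, and 73.6 and 51.1 CPM in BCAS+TBI libraries there, with TBI 2 far above the rest, and a log2 fold change of 1.50 ± 0.18. Of the microglia-like nuclei with at least 10 members, 53 of 54 were nuclei of very high UMI counts, with a median of 26235 UMIs, as were 57 of 57 such oligodendrocyte-like nuclei. In astrocyte-like nuclei 10 of 41 were higher (31.8% of genes), with Dnah7b at 2.42 ± 0.13 and Spag17 at 1.91. Oligodendrocyte precursor-like nuclei also had more Dnah7b (2.32 ± 0.16), at a pooled 67.0 CPM against 6.15 CPM in excitatory neuron-like nuclei.

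The excitatory neuron-like class held 14037 nuclei at a median of 6306 UMIs, and its 37.1% of the members' UMIs was close to its share of all UMIs. In excitatory neuron-like nuclei 28 of 42 tested members were higher (35.5% of genes), among them Cfap65 (1.87 ± 0.12), Cfap54 (1.32 ± 0.04) and Dnah6 (1.30). Cfap54 had 214 and 271 CPM in control, 225 and 297 CPM in BCAS, 219 and 279 CPM in TBI, and 275 and 201 CPM in BCAS+TBI libraries, with the 4 libraries of set 2 above those of set 1. In inhibitory neuron-like nuclei 27 of 42 were lower (28.6% of genes), with Dnah6 at -3.19 ± 0.16 and Cfap65 at -1.87. The excitatory neuron-like class was the largest of the classes summed against them. These lower calls are therefore not independent of the higher calls in excitatory neuron-like nuclei. In striatal projection neuron-like nuclei 12 of 42 were higher (12.8% of genes), with Dnah6 at 1.15 ± 0.16 and Spag16 at 1.11.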

How the data were processed

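The deposited tables hold whole-number UMI counts per gene and barcode, which the authors produced, per the file headers, with Cell Ranger 7.0.0. The submitters' processing notes name GRCm38 (mm10) and Seurat. The settings for introns and strand are not given in the sources used here. Barcodes under 500 UMIs, under 300 genes or above 5% mitochondrial UMIs were dropped, and in each library the 6% with the highest Scrublet score (scanpy 1.11.5) were removed as doublets, leaving 45560 nuclei. A nucleus qualified for a non-neuronal class when it held at least 3 of its markers at a share at least 5 times the mean of all nuclei. It joined that class when this ratio was at least 3-fold above the second class. Only nuclei that qualified for no non-neuronal class could join a neuron class. There at least 3 markers, a marker share no lower than the mean and a 2-fold lead over the second neuron class sufficed. The markers were listed first, and these cut-offs were set after the data were seen. Other nuclei are ungated: 10830 qualified for no class and 3168 had no sufficient lead of 1 class.

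Counts were summed per library and class, scaled by TMM and filtered by expression (filterByExpr, minimum count 10). Classes were compared by edgeR's quasi-likelihood test (edgeR 4.0.16, R 4.3.3) with library as a term, and groups in 1 fit of 4 groups per class, with Benjamini-Hochberg adjustment over all genes tested (over all class and gene pairs for groups within classes). DESeq2 1.42.0 was the alternative tool, and shares were compared by exact permutation. The procedure was tested on simulated data. SE is the log2 fold change divided by the root of F. CPM is a gene's UMIs scaled to a fixed sum per library or class; it is not per length, so levels are not compared between genes. Locations are from the GENCODE M21 annotation of GRCm38, sequences from RefSeq GRCm38.p6.

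Members and lists were chosen with earlier results of these data known. Named genes are Foxj1, the member with the most UMIs per axoneme place, the 5 highest and 5 lowest ependymal-like to other ratios, up to 5 called or the 2 smallest p per comparison, at most 2 per surgery that separate the libraries, the 2 pathway genes per list with the most UMIs and the 10 most alike genes; other members are named to describe a count and were chosen after their values were seen.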

Additional observations from a re-analysis of the deposited data

How the results depend on the processing

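The 191 ependymal-like nuclei, 8 to 45 per library, limit what groups can show: most members rest on a few UMIs per library there. For ependymal-like and choroid plexus-like against other gated nuclei, the members called (higher and lower together) stayed within 1.5 times under every alternative tried. They numbered 40 to 43 for ependymal-like and 33 to 36 for choroid plexus-like nuclei when 1 library was left out. Other class comparisons moved more. Ependymal-like against choroid plexus-like nuclei gave 7 higher and 1 lower, but 13 and 2 with doublets kept. Without nuclei of very high UMI counts it gave 4 and 0, and lower members in microglia-like nuclei went from 8 to 21. Every group comparison kept 0 calls. Leaving out 1 library leaves its group with 1, which is then assumed to vary like the other groups. The share differences ran from -0.186 to -0.0397 points for TBI and from -0.202 to -0.0207 points for BCAS without 1 library.

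The share of all nuclei with at least 5 members (25.1%) was 49.2% for at least 3 members, 3.97% for at least 10, 1.15% after thinning, 26.4% with doublets kept, 15.3% over the 46 members at least 2-fold higher in ependymal-like nuclei and 22.8% without nuclei of very high UMI counts, an alternative chosen after seeing the data. Members near a fold change of 0 changed sign. Cfap97 in ependymal-like nuclei was 0.19 with DESeq2, 0.21 with RLE size factors, 0.11 with a stricter gate, 0.043 at 1000 UMIs or more and -0.14 to 0.13 without 1 library; in choroid plexus-like nuclei it was 0.049 with a stricter gate, 0.059 without nuclei of very high UMI counts and -0.057 to 0.075 without 1 library. Rsph3a in ependymal-like nuclei was 0.021 with RLE size factors and 0.33 without nuclei of very high UMI counts. Dnah8 in choroid plexus-like nuclei was -0.067 with DESeq2, -0.087 without a filter on low counts, -0.11 with doublets kept, -0.035 without nuclei of very high UMI counts and -0.31 to 0.21 without 1 library. The cause of these changes was not tested.

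Replicate numbers did not pair the libraries in the same way in every group. The sets by total UMIs hold replicate 1 of control, BCAS and TBI together with replicate 2 of BCAS+TBI. The correlations below have that same arrangement. The main group fits held no term for the set, so differences between the sets add to their spread. Across 23975 genes the differences between replicates 1 and 2 correlated at 0.807 (control and BCAS), 0.665 (control and TBI) and 0.672 (BCAS and TBI), but at -0.801, -0.855 and -0.761 with BCAS+TBI. With the replicate number as a block 0 members were called in every group comparison, and 6 of 32 members had an unadjusted p under 0.05 for BCAS in ependymal-like nuclei (median -0.71).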
